A study of Homo sapiens with 6 samples.

Results

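Immunoglobulin constant genes encode the part of an antibody chain that does not bind antigen, and JCHAIN encodes the joining chain that links antibody units into polymers. The 10 genes described here were matched by symbol to the Ensembl identifiers of the deposited tables, with identifier versions removed, and all 10 were found among 61498 genes. They are the lambda light chain constant genes IGLC1, IGLC2, IGLC3 and IGLC7, the kappa light chain constant gene IGKC, the heavy chain constant genes IGHM, IGHG1, IGHA1 and IGHE, and JCHAIN. RNA-seq had been run on 3 untreated human cell lines with 2 libraries each, after depletion of ribosomal RNA. RPMI-8226 is an established myeloma line, which is a line of malignant plasma cells, and RPMI-8226-R is its derivative with resistance to the proteasome inhibitor bortezomib. NCI-BL2171, labelled as B lymphocytes like the other lines, served as the non-myeloma line. No further allele or agent is labelled for any of them. The labels also do not say how resistance was obtained, whether RPMI-8226-R is 1 clone, or whether separate cultures were sequenced. The p-values below therefore rest on the spread between libraries of a line, which may be technical.

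An antibody is built of heavy and light chains, and each B cell normally joins variable, diversity and joining segments at a heavy chain locus and variable and joining segments at a kappa or a lambda locus before it makes a working chain. The constant gene that follows sets the class of the heavy chain (IGHM for IgM, IGHG genes for IgG, IGHA genes for IgA, IGHE for IgE) or the type of the light chain. Plasma cells make these transcripts at very high levels, and RPMI-8226 is known as a line that makes lambda light chains. JCHAIN is made in B-lineage cells that secrete antibody, and its product joins IgM and IgA units.

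Libraries held from 23952370 to 29052199 estimated reads. Differences between lines are log2 differences of read counts scaled by the TMM method (trimmed mean of M values), ± SE, tested in edgeR's quasi-likelihood model over all 6 libraries with Benjamini-Hochberg adjustment over 20081 genes at 0.05. Levels are in TPM (the length-corrected share of a gene among all transcripts), the only scale on which genes are compared with each other. Since a library's TPM sum to a fixed total, TPM shifted a gene's difference between RPMI-8226-R and RPMI-8226 by a median of 0.38 upward from the scaled counts, whose median over all genes was -0.12. In bulk RNA, fewer cells of a type and less RNA per cell cannot be told apart. Marker genes went against 1 label: 10 erythroid markers (globins, ALAS2, KLF1, GATA1, EPOR) summed to 48347 and 50363 TPM in the libraries labelled NCI-BL2171, against 61.0 to 64.5 TPM in RPMI-8226 and 171 to 187 TPM in RPMI-8226-R. The 9 B cell markers summed to 5.07 and 5.26 TPM in these libraries, with MS4A1, PAX5 and BLK at 0 reads. Their 8 plasma cell markers summed to 47.9 and 50.5 TPM, with TNFRSF17, IRF4, MZB1 and SLAMF7 at 0 reads. In RPMI-8226 and RPMI-8226-R the plasma cell markers summed to 1733 to 1757 and 1331 to 1403 TPM. The B cell markers summed to 5467 to 5626 TPM in RPMI-8226, nearly all of it CD74, the invariant chain of MHC class II, and to 179 to 186 TPM in RPMI-8226-R, where MS4A1, CD22 and BANK1 were at 0 reads. T cell and myeloid markers summed to at most 6.71 and 53.1 TPM in any library, the latter in the libraries labelled NCI-BL2171.

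The lambda constant genes lie in a row on chromosome 22 and differ by few bases, which bears on how far a read can be given to one of them. The first 260 of their 317 coding bases are shown 5′ to 3′ on the plus strand of GRCh38 from the GENCODE 29 transcripts, with capitals at the 21 positions of this stretch where the 4 genes are not all alike. Another 4 such positions follow it, so that 25 of the 317 positions varied and 292 did not.
IGLC1 (chr22:22895375-22895634): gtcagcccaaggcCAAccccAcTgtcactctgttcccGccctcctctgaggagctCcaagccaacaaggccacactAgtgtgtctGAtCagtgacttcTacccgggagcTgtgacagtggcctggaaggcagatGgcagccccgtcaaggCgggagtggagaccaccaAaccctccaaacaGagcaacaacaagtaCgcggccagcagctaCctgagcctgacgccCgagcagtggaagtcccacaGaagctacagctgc
IGLC2 (chr22:22900976-22901235): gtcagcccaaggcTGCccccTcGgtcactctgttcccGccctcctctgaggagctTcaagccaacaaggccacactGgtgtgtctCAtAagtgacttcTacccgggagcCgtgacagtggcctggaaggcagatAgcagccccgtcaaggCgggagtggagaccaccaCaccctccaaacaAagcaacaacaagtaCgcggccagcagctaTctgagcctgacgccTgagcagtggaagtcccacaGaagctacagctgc
IGLC3 (chr22:22906342-22906601): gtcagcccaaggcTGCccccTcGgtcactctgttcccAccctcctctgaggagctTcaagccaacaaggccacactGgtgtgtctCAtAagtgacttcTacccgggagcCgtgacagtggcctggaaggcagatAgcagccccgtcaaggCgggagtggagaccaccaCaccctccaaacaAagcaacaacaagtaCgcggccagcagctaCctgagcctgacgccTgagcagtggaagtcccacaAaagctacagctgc
IGLC7 (chr22:22922594-22922853): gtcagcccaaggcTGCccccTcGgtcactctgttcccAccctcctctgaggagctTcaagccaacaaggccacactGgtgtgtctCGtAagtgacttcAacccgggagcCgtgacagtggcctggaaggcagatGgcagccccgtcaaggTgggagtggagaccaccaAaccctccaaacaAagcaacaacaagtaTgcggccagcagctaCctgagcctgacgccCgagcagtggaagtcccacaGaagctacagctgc
IGLC2 and IGLC3 were 99.1% identical over the coding bases and differed at 3 positions, counted from 1 at the first base shown with the IGLC2 base first, G38A, T212C and G247A. The other pairs were from 93.7% (IGLC1 with IGLC7) to 96.2% (IGLC3 with IGLC7) identical. Of the 31-base words of the whole transcript, 82.4% of those of IGLC2, 83.1% of those of IGLC3 and 31.6% of those of IGLC7 were also found in other genes. Every word of IGLC1 was found in IGLL5, a light chain-like gene whose last exon covers IGLC1, and IGLL5 held 0 reads in all 6 libraries. A read assigned to IGLC1 could therefore have come from IGLL5, and many reads of IGLC2 could have come from IGLC3, so the sum of the 4 genes is given beside each. IGKC and IGHM shared no 31-base word with another gene, and JCHAIN shared 1.12%.

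Lambda constant transcripts were the largest immunoglobulin product of both myeloma lines and were lower in RPMI-8226-R. The summed lambda constant genes stood at 70287 and 72627 TPM in the RPMI-8226 libraries and at 39196 and 40398 TPM in those of RPMI-8226-R. In the libraries labelled NCI-BL2171 the sum was 0 and 0.246 TPM, the latter from 2 reads of IGLC2. Both RPMI-8226 libraries lay above both of RPMI-8226-R, with no overlap. On the scaled counts the sum fell by 1.24 ± 0.07 on the log2 scale (2.36-fold lower, edgeR adjusted p = 1.9e-12). On the log2(TPM + 1) scale the difference was -0.84 (limma adjusted p = 0.000707), and with a pseudocount of 0.1 TPM the same difference did not pass (limma adjusted p = 0.223).

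IGLC2 was the most abundant gene of all by TPM in each of the 4 myeloma libraries. It stood at 52109 and 54588 TPM in RPMI-8226 and at 29097 and 30034 TPM in RPMI-8226-R, and fell by 1.25 ± 0.07 on the log2 scale (edgeR adjusted p = 1.6e-12). On log2(TPM + 0.1) its difference of -0.85 did not pass (limma adjusted p = 0.22). IGLC3, whose rank by TPM was 3 in both RPMI-8226 libraries and 8 and 6 in those of RPMI-8226-R, stood at 17136 and 17195 TPM and then at 9567 and 9855 TPM. Its fall was 1.22 ± 0.06 on the log2 scale (edgeR adjusted p = 1.1e-12). IGLC1 stood at 868 and 686 TPM in RPMI-8226, a wider gap between libraries than IGLC2 or IGLC3 showed, and at 463 and 435 TPM in RPMI-8226-R. It fell by 1.19 ± 0.12 on the log2 scale (edgeR adjusted p = 7.5e-05). IGLC7 stood at 174 and 158 TPM in RPMI-8226 and at 68.7 and 73.4 TPM in RPMI-8226-R. Its fall of 1.62 ± 0.10 on the log2 scale was the largest of the 4 (edgeR adjusted p = 1.0e-11), though the difference between it and the others was not tested. For each of the 4 genes both RPMI-8226 libraries lay above both of RPMI-8226-R. The share of all genes without overlap was not counted, but 65.6% of all genes tested were called between these lines. As the 4 genes share sequence, these are not 4 separate results.

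The division of lambda TPM among the genes was nearly the same in both lines. IGLC2 held 74.1% and 75.2% of the lambda TPM in RPMI-8226 and 74.2% and 74.3% in RPMI-8226-R. IGLC3 held 24.4% and 23.7%, then 24.4% and 24.4%. The share of IGLC1 ranged from 0.944% to 1.24% over these 4 libraries, with overlap between the lines. IGLC7 held 0.247% and 0.218% in RPMI-8226 and 0.175% and 0.182% in RPMI-8226-R, without overlap.

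Among the annotated lambda pseudogenes, IGLC6 (chr22:22919535-22919851) had most reads. It stood at 299.9 and 200.2 TPM in RPMI-8226 and at 164 and 151 TPM in RPMI-8226-R and fell by 1.06 ± 0.24 on the log2 scale (edgeR adjusted p = 0.0169), a call that was lost when the first or the second RPMI-8226-R library was left out (adjusted p = 0.23 and 0.297), with differences of -1.17 and -0.94. IGLC5 fell by 1.65 ± 0.50 on the log2 scale from 92 to 31 reads in all (edgeR adjusted p = 0.00662). Without the first RPMI-8226 library, which held 64 of those reads, its difference was -0.99 (adjusted p = 0.256), and DESeq2 did not call it (adjusted p = 0.0532). IGLC4 held 0 reads in all 6 libraries.

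**Figure D1:**
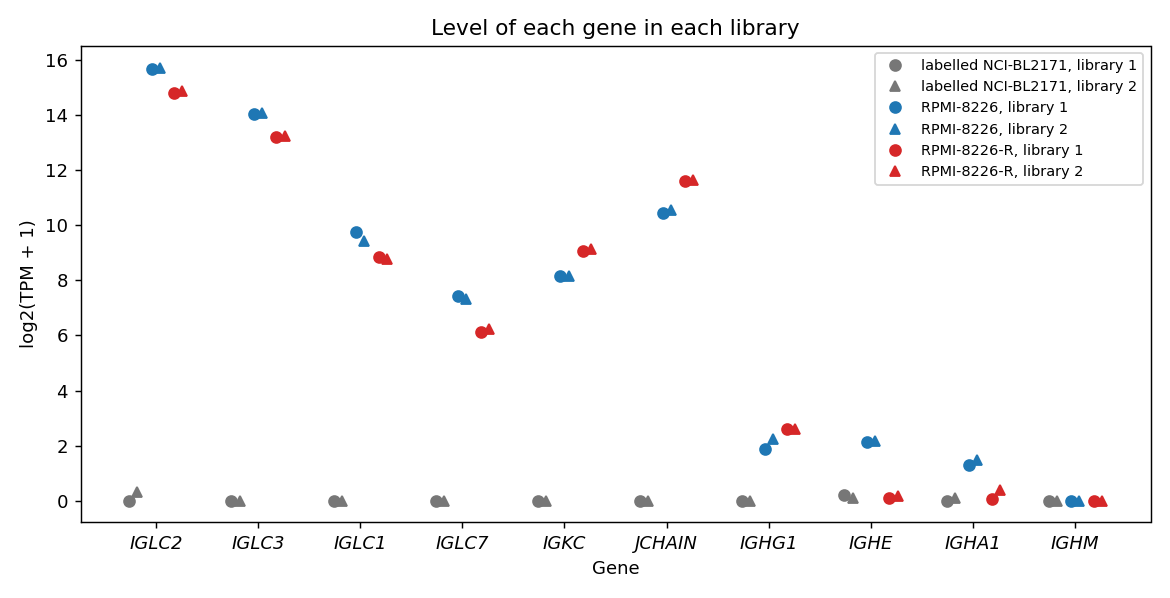
Level of each of the 10 genes as log2(TPM + 1) in each of the 6 libraries, with circles for the first and triangles for the second library of a line. The lambda genes lie lower and IGKC and JCHAIN higher in RPMI-8226-R (red) than in RPMI-8226 (blue), the libraries labelled NCI-BL2171 (grey) lie at or near 0, and IGHM is at 0 throughout.

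The kappa constant gene moved the other way. IGKC (chr2:88857161-88857683, minus strand) stood at 285.0 and 284.6 TPM in RPMI-8226, from 3519 and 3324 reads. It stood at 532 and 572 TPM in RPMI-8226-R, from 5225 and 5594 reads, and held 0 reads in the libraries labelled NCI-BL2171. Both RPMI-8226-R libraries lay above both of RPMI-8226, and IGKC rose by 0.56 ± 0.06 on the log2 scale (1.48-fold higher, edgeR adjusted p = 1.9e-07). The difference on log2(TPM + 1) was 0.95. Kappa remained a small part of the light chain constant TPM, with 0.404% and 0.390% in RPMI-8226 and 1.34% and 1.40% in RPMI-8226-R. The kappa share of light chain TPM was thus higher in both libraries of RPMI-8226-R. With 2 libraries against 2, the smallest p of a two-sided exact permutation test is 0.33, so no test is given for such ratios.

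JCHAIN (chr4:70655541-70681817, minus strand) also rose. It stood at 1383 and 1495 TPM in RPMI-8226 and at 3147 and 3208 TPM in RPMI-8226-R, with 0 reads in both libraries labelled NCI-BL2171. The lines did not overlap, and JCHAIN rose by 0.74 ± 0.06 on the log2 scale (1.67-fold higher, edgeR adjusted p = 1.8e-09), or by 1.14 on log2(TPM + 1). Its rank by TPM was 106 and 98 in RPMI-8226 and 24 in both libraries of RPMI-8226-R. Lambda constant TPM were 50.8 and 48.6 times those of JCHAIN in RPMI-8226 and 12.5 and 12.6 times in RPMI-8226-R. As a log2 ratio of JCHAIN to summed lambda TPM, this was -5.63 ± 0.05 (SD, n = 2 libraries) against -3.65 ± 0.01 (SD, n = 2 libraries).

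**Figure D2:**
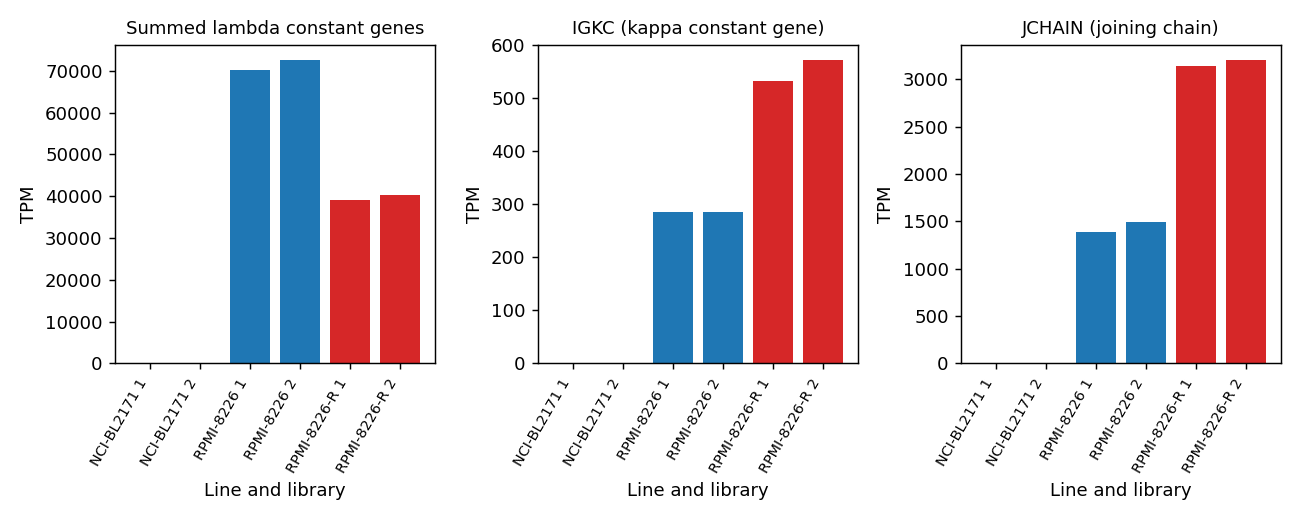
Bars give the TPM of the summed lambda constant genes, IGKC and JCHAIN in each of the 6 libraries, on linear axes that start at 0. The lambda sum is lower in RPMI-8226-R (39196 and 40398 TPM) than in RPMI-8226 (70287 and 72627 TPM), while IGKC and JCHAIN are higher in RPMI-8226-R.

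Heavy chain constant genes were expressed at low levels beside the light chains in both myeloma lines, and IgG genes held most of their TPM. Summed over the heavy chain constant genes, the level was 56.4 and 62.1 TPM in RPMI-8226 and 68.5 and 72.2 TPM in RPMI-8226-R. Light chain TPM were 1250 and 1174 times the heavy chain TPM in RPMI-8226, and 580 and 568 times in RPMI-8226-R. IGHG genes held 88.4% and 88.5% of the heavy chain TPM in RPMI-8226 and 98.0% and 97.0% in RPMI-8226-R.

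IGHM (chr14:105851705-105856218, minus strand), whose product is the chain of IgM, held 0 reads in all 6 libraries and was not tested. A count of 0 allows up to 3 reads, which is from 0.0638 to 0.0811 TPM in these libraries, a limit for counting error only. IGHD, for IgD, also held 0 reads throughout.

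IGHG1 (chr14:105736343-105743071, minus strand), for the IgG1 subclass, stood at 2.65 and 3.69 TPM in RPMI-8226, from 89 and 137 reads, and at 5.14 and 5.07 TPM in RPMI-8226-R, from 228 and 260 reads. The lines did not overlap on this scale, and IGHG1 rose by 1.00 ± 0.22 on the log2 scale of counts (edgeR adjusted p = 0.00057). With the effective length of each gene in each library as an offset the difference was 0.35 (adjusted p = 0.278), and on log2(TPM + 0.1) it was 0.69 (limma adjusted p = 0.0566), neither of which passed. Of its 31-base words, 68.7% were shared with other IGHG genes.

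The other IgG genes differed in how they moved. IGHG2 was the most abundant heavy chain constant gene, at 30.0 and 35.3 TPM in RPMI-8226 and 43.1 and 48.0 TPM in RPMI-8226-R, and rose by 0.76 ± 0.09 on the log2 scale (edgeR adjusted p = 7.2e-07). This call too was lost with the length offset, at 0.15 (adjusted p = 0.318). IGHG3 went from 24 and 26 reads to 176 and 175 reads, a rise of 2.71 ± 0.29 on the log2 scale (edgeR adjusted p = 7.3e-08), and the call held with the offset at 2.37. IGHG4 stood at 16.9 and 15.6 TPM and then at 16.3 and 14.5 TPM, with overlap between the lines and a difference of 0.05 ± 0.12 (edgeR adjusted p = 0.762). The sum of the 4 IGHG genes, added after these values were seen because they share sequence, rose by 0.66 ± 0.08 on the log2 scale (edgeR adjusted p = 2.9e-07). With the length offset the difference of that sum was 0.17 and did not pass (adjusted p = 0.189), and on log2(TPM + 0.1) it was 0.39 (limma adjusted p = 0.105).

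IGHE (chr14:105597691-105601728, minus strand), for IgE, had the largest change among the 10 genes between the myeloma lines. It held 147 and 148 reads in RPMI-8226 (3.40 and 3.50 TPM) and 2 and 4 reads in RPMI-8226-R (0.058 and 0.115 TPM). The RPMI-8226-R values lay within the range of 2 and 6 reads found in the libraries labelled NCI-BL2171. The ratio of scaled counts was 52.6 (95% counting interval 23.9 to 144), and IGHE fell by 5.66 ± 0.45 on the log2 scale (edgeR adjusted p = 4.7e-10). Its share of the heavy chain constant TPM was 6.03% and 5.63% in RPMI-8226 and 0.0847% and 0.159% in RPMI-8226-R. Words shared with other genes, nearly all of them with the pseudogene IGHEP1, made up 24.1% of IGHE. IGHEP1 itself held 3 and 4 reads in RPMI-8226 and 0 in the other libraries.

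IGHA1 (chr14:105703995-105708665, minus strand), for the IgA1 subclass, held 51 and 65 reads in RPMI-8226 (1.46 and 1.79 TPM) and 1 and 8 reads in RPMI-8226-R (0.038 and 0.302 TPM). The lines did not overlap, and the ratio of scaled counts was 13.8 (95% counting interval 7.02 to 30.9). IGHA1 fell by 3.76 ± 0.63 on the log2 scale (edgeR adjusted p = 2.1e-05). Its difference was -2.98 without the first RPMI-8226-R library, which held the 1 read, and -5.73 without the second, with the call kept in both. IGHA2, for IgA2, holds 47.1% of the words of IGHA1. It had 61 and 67 reads and then 34 and 45 reads, with a difference of -0.80 ± 0.36 that did not pass (edgeR adjusted p = 0.0554). Their sum, added after the values were seen, fell by 1.57 ± 0.31 on the log2 scale (edgeR adjusted p = 0.00017), a call lost on log2(TPM + 0.1) at -0.996 (limma adjusted p = 0.063).

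Of the 10 genes, 3 were called higher in RPMI-8226-R (IGKC, IGHG1, JCHAIN) and 6 lower (the 4 lambda genes, IGHA1, IGHE), while IGHM was not tested. Among all 20081 genes tested, 28.5% were called higher and 37.2% lower, 65.6% in all, so that a call was common between these lines. On log2(TPM + 1) the split over all genes turned to 35.0% higher and 22.7% lower, with the members' directions as on the counts. The median log2 difference of the 9 genes that passed the filter on low counts was -1.22, the value of IGLC3, beside -0.12 over all genes tested. In RPMI-8226-R, IGHA1 held 1 and 8 reads and IGHE 2 and 4. Both passed that filter through the RPMI-8226 libraries alone, which left little room for a call of higher. As the 4 lambda genes also share sequence, the count of calls and the median add little to the single values. IGHG1 was the 1 gene of the 9 whose edgeR call was lost with the length offset, which left 2 called higher. Of the 12 other constant and light chain-like genes of the 3 loci, 7 were tested, with 3 called higher (IGHG2, IGHG3, IGLL1) and 2 lower (IGLC5, IGLC6). IGLL1, a surrogate light chain gene of early B cells, went from 21 and 7 reads to 132 and 126 reads, a rise of 3.10 ± 0.40 on the log2 scale (edgeR adjusted p = 8.5e-07) that was 4.04 without the first RPMI-8226 library. The pseudogene IGHGP held 2 and 4 reads in RPMI-8226 and 10 and 3 in RPMI-8226-R and was not tested.

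**Figure D3:**
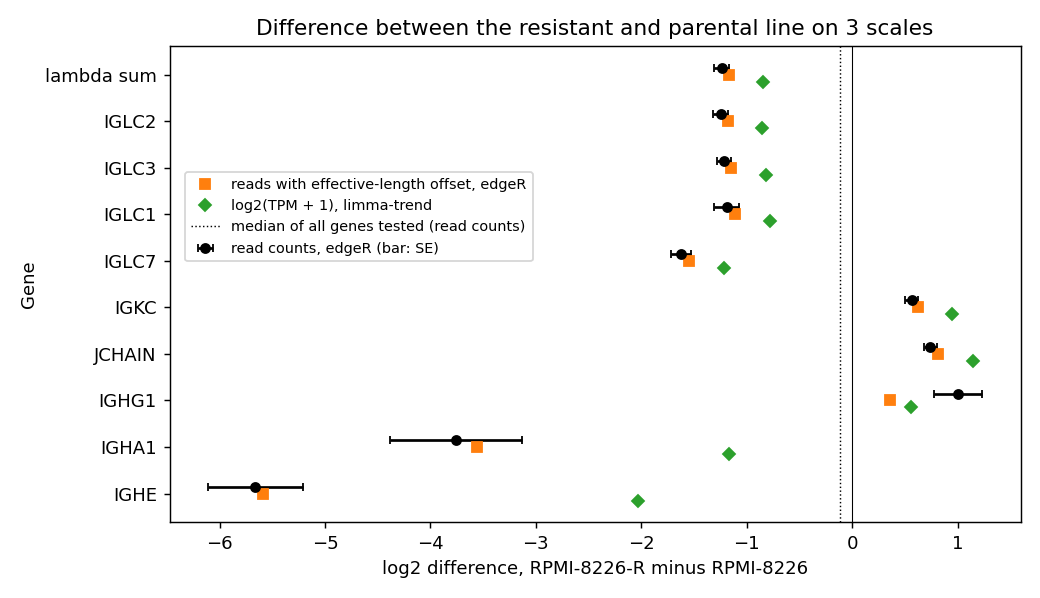
Log2 difference of RPMI-8226-R minus RPMI-8226 for the summed lambda constant genes and 9 genes on read counts (black, bars are SE), on read counts with an effective-length offset (orange) and on log2(TPM + 1) (green), which understates the change of low genes such as IGHE and IGHA1. The directions are the same on the 3 scales, and IGHG1 moves from 1.00 to 0.35 with the offset. The dotted line marks the median of all genes tested on read counts, -0.12.

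The order of the levels by TPM was IGLC2, IGLC3, JCHAIN, IGLC1, IGKC and IGLC7 in RPMI-8226, each step without overlap of libraries. IGHE and IGHG1 came next and overlapped each other, IGHA1 followed, and IGHM was last at 0. In RPMI-8226-R, IGKC stood above IGLC1, and IGHG1 stood above IGHA1 and IGHE, which overlapped. The 10 genes together held 7.20% and 7.44% of all TPM in RPMI-8226 and 4.29% and 4.42% in RPMI-8226-R.

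The deposited tables also hold a mean transcript length for each gene and library, which moves with the transcripts that a gene's reads were assigned to. This was checked on genes without a read, whose length equalled the plain mean of their annotated transcripts within 1 base in 99.8% of 12623 cases, and on genes with reads and 2 transcripts, whose length lay between the shorter and the longer in 100% of 3376 cases. It was examined after the values above were seen. The annotated IGHG genes each have a shorter form and a longer one with extra exons downstream, where heavy chain genes hold the exons of the membrane-bound form of the chain. For IGHG2 the mean length was 1199 and 1201 bases in RPMI-8226 and 1792 and 1836 bases in RPMI-8226-R. With annotated forms of 1116 and 2594 bases, these lengths correspond to shares of the longer form of 5.62% and 5.75%, then 45.7% and 48.7%. The IGHG2 lengths did not overlap between the lines.

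The same direction was seen for IGHG4, where the longer form took 4.4% and 4.06% in RPMI-8226 and 30.4% and 38.5% in RPMI-8226-R. In IGHG3 it took 58.8% and 55.8%, from 24 and 26 reads, and then 100% in both libraries. IGHG1 has 3 annotated transcripts, of 1022, 1128 and 2619 bases, so no share follows, and its mean length went from 1145 and 1286 to 1791 and 2032 bases. The IGHA genes showed the opposite order, with a longer-form share of IGHA2 of 57.0% and 69.1% and then 16.1% and 13.3%. For IGHA1 it was 28.3% and 62.6%, then 0% from only 1 and 8 reads. All IGHE reads were assigned to the shorter form in every library. The lengths rest on the quantifier's assignment among overlapping transcripts and among IGHG genes that share sequence, so these shares are not counts of molecules, and no test was run on them.

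**Figure D4:**
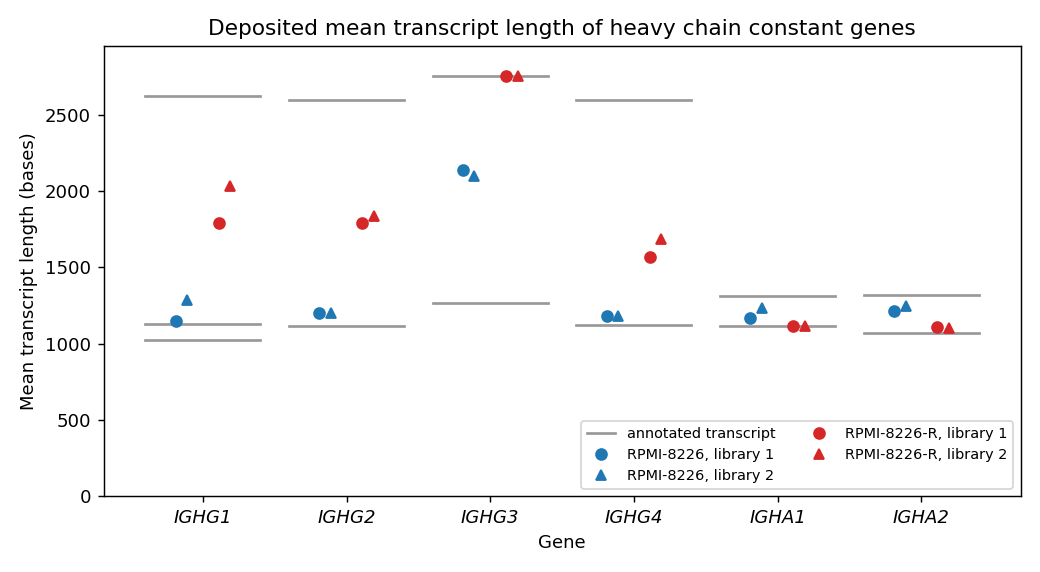
Deposited mean transcript length in bases of the IGHG and IGHA genes in the 2 libraries each of RPMI-8226 (blue) and RPMI-8226-R (red), with grey lines at the lengths of the annotated transcripts. The IGHG lengths are longer in RPMI-8226-R for all 4 genes, as from 1199 and 1201 to 1792 and 1836 bases for IGHG2, and the IGHA lengths are shorter.

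Against the libraries labelled NCI-BL2171, 9 of the 10 genes were called higher in RPMI-8226 and 0 lower, where 41.1% of all genes tested were called higher, 35.6% lower and 76.7% in either direction. In RPMI-8226-R 7 were called higher and 0 lower, against 39.2%, 38.2% and 77.4% of all genes. These comparisons share the libraries labelled NCI-BL2171, and that with the other myeloma line shares the myeloma libraries. As those libraries carried erythroid and few B-lineage transcripts, they are a comparison with cells of that profile. Genes with 0 reads there are compared with a floor of 3 reads per library, which covers counting error only. The 9 members tested held from 0 to 8 reads in all in the libraries labelled NCI-BL2171. Each therefore passed the filter on low counts through the myeloma libraries alone. That left almost no room for a call of lower, so the counts of calls add nothing to the levels.

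IGLC3 was at least 57791-fold higher in RPMI-8226 and at least 24893-fold higher in RPMI-8226-R. JCHAIN was at least 9911-fold and 16538-fold higher, IGLC1 at least 2639-fold and 1155-fold, and IGKC at least 1136-fold and 1679-fold. IGLC7 followed with at least 532-fold and 173-fold, and IGHG1 with at least 37.8-fold and 75.6-fold. The ratio of scaled counts for the lambda sum, resting on 2 reads in the second library labelled NCI-BL2171, was 723515 (95% counting interval 200289 to 5974310) for RPMI-8226 and 306555 (84863 to 2531320) for RPMI-8226-R. IGHE was higher in RPMI-8226 by a ratio of 36.8 (18.4 to 86.0), and IGHA1 by 57.9 (15.7 to 484). On the log2 scale IGHA1 was higher by 4.71 without the first library labelled NCI-BL2171 and by 8.91 without the second, and IGHE by 6.05 without the first. Neither IGHE (edgeR adjusted p = 0.567) nor IGHA1 (adjusted p = 0.13) passed in RPMI-8226-R. Without the first RPMI-8226-R library, which held 1 IGHA1 read, IGHA1 was called higher at 2.71 on the log2 scale (edgeR adjusted p = 0.0181), and without the second, which held 8, the difference was -0.038.

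Reads of the variable and joining segments inside each locus were counted per segment, and no junction between segments was examined. At the lambda locus IGLV2-14 held 86.2% and 88.2% of the variable segment reads in RPMI-8226 (278478 and 263752 reads) and 86.1% and 86.8% in RPMI-8226-R (126227 and 129265 reads). Its level was 32911 and 33203 TPM and then 18792 and 19367 TPM, lower in both RPMI-8226-R libraries as for the lambda constant genes. IGLJ3 held between 99.96% and 100% of the lambda joining segment reads in the 4 myeloma libraries. The same lambda segments thus led in both lines. Of the 31-base words of IGLV2-14, 74.7% were also found in other genes, so its share rests on how reads were assigned.

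At the kappa locus the leading variable segment, IGKV1D-43, held 391 and 418 reads in RPMI-8226 and 271 and 362 in RPMI-8226-R, and the 5 kappa joining segments held 0 reads. IGKC therefore rose while the IGKV1D-43 reads did not, though IGKV1D-43 was not tested. None of the 126 heavy chain variable and 9 heavy chain joining segments held a read in the 4 myeloma libraries. Of the libraries labelled NCI-BL2171, the first held 3 reads of IGHV3-43, and both held reads of IGLV5-52 (7.52 and 16.1).

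Factors that control immunoglobulin loci moved in both directions between the myeloma lines. Of 20 listed regulators 17 were tested, with 6 higher and 9 lower in RPMI-8226-R and a median of -0.35, or 8 higher and 7 lower on log2(TPM + 1). Over all genes tested, 28.5% were higher and 37.2% lower on the counts, and 35.0% and 22.7% on log2(TPM + 1), so that calls in both directions were common. POU2AF1, a coactivator of octamer-binding factors at immunoglobulin promoters, stood at 51.4 and 54.5 TPM and then at 137 and 158 TPM and rose by 1.06 ± 0.07 on the log2 scale (edgeR adjusted p = 5.0e-11). UNG, the uracil glycosylase that acts in class switching, rose by 1.18 ± 0.08, and CSTF2, a polyadenylation factor known to affect the choice between secreted and membrane IgM, rose by 0.61 ± 0.11. The plasma cell factors IRF4 and XBP1 rose by 0.59 ± 0.06 and 0.29 ± 0.06, and PRDM1, which represses the B cell program, fell by 0.79 ± 0.10. The Ets family factor SPIB fell by 4.20 ± 0.23 on the same scale, the inhibitor of E proteins ID3 fell by 2.74 ± 0.07, and the interferon regulatory factor IRF8 fell by 1.99 ± 0.10. BCL6, under the 5 TPM asked of named genes, fell most of the listed regulators. Its fall was 5.73 ± 0.27, from 657 to 13 reads in all (edgeR adjusted p = 1.0e-13). EBF1, a factor of early B cell development, was at 0 reads in the myeloma lines. Against the libraries labelled NCI-BL2171, 9 of 17 were higher and 6 lower in RPMI-8226, beside 41.1% and 35.6% of all genes tested. The highest by fold, IRF4, POU2AF1 and IRF8, held 0 reads there and were at least 1515-fold, 1411-fold and 534-fold higher. In RPMI-8226-R 9 of 17 were higher and 5 lower, beside 39.2% and 38.2% of all genes tested, with POU2AF1, IRF4 and IRF8 at least 2937-fold, 2280-fold and 134-fold higher. IRF4, POU2AF1, IRF8 and PAX5, all at 0 reads in the libraries labelled NCI-BL2171, passed the filter on low counts through the myeloma libraries alone. They could hardly be called lower, so these counts of calls are not read as a result. The lower ones named by size were POU2F1 and HNRNPLL in both myeloma lines, with SPI1 in RPMI-8226, which fell by 0.57 ± 0.10, and BCL6 in RPMI-8226-R, which fell by 5.89 ± 0.27.

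Most tested genes of antibody folding, assembly and export were lower in RPMI-8226-R on the scaled counts, where 5 of 23 were higher and 16 lower with a median of -0.62, beside 28.5% higher, 37.2% lower and a median of -0.12 over all genes tested. On log2(TPM + 1) 7 were higher and 10 lower with a median of -0.22, beside 35.0% and 22.7% of all genes. The list held 24 genes, 1 of which was not tested. CD79B, VPREB1 and VPREB3 were among the 16 lower at few reads, from 24 to 6, from 57 to 0 and from 96 to 29 in all. MZB1, a chaperone of heavy chain assembly and secretion in the endoplasmic reticulum, stood at 1410 and 1444 TPM in RPMI-8226 and at 848 and 889 TPM in RPMI-8226-R and fell by 1.18 ± 0.06 on the log2 scale (edgeR adjusted p = 1.8e-12). HSPA5, the chaperone BiP that holds unpaired heavy chains, fell by 1.38 ± 0.06, its cochaperone DNAJB9 fell by 1.44 ± 0.08, and the oxidase ERO1B fell by 2.29 ± 0.13. ERP44, which retains unassembled antibody subunits, fell by 0.62 ± 0.07 on the counts, but its difference on log2(TPM + 1) was -0.22 and did not pass (limma adjusted p = 0.0785). The cargo receptor subunit MCFD2 rose by 0.78 ± 0.07, and CRELD2 and SDF2L1, both of the endoplasmic reticulum, by 0.32 ± 0.09 and 0.29 ± 0.09. The call of SDF2L1 was lost without the first RPMI-8226 library (adjusted p = 0.0942).

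The signalling partners of membrane antibody were near 0. CD79B held 24 reads over both RPMI-8226 libraries and 6 over those of RPMI-8226-R, a ratio of 4.28 (95% counting interval 1.70 to 12.8) whose edgeR call (adjusted p = 0.0209) was lost when any 1 myeloma library was left out (adjusted p from 0.0787 to 0.0957) and by DESeq2 (0.0898). The log2 difference of CD79B was from -2.09 to -1.99 without each of these libraries and -2.05 by DESeq2. CD79A went from 28 to 6 reads in all and was not tested. Compared with the libraries labelled NCI-BL2171, 14 of the 23 assembly genes were higher and 6 lower in RPMI-8226, beside 41.1% and 35.6% of all genes tested. In RPMI-8226-R 11 were higher and 7 lower, near the 39.2% and 38.2% of all genes. In the libraries labelled NCI-BL2171, MZB1 and VPREB1 held 0 reads and VPREB3 held 6 in all. These genes passed the filter on low counts through the myeloma libraries alone and could hardly be called lower, so the counts of calls are not read as a result. MZB1 was at least 12325-fold and 5440-fold higher, while the prolyl isomerase FKBP11 rose by 4.96 ± 0.11 and 5.18 ± 0.11 and the signal peptidase subunit SEC11C by 4.41 ± 0.08 and 3.56 ± 0.08 on the log2 scale. SDF2L1 fell by 4.09 ± 0.08 in RPMI-8226 and fell by 3.81 ± 0.08 in RPMI-8226-R, and the chaperone HSP90B1 fell by 1.48 ± 0.06 in RPMI-8226 and fell by 2.52 ± 0.06 in RPMI-8226-R. MCFD2 in RPMI-8226 fell by 1.38 ± 0.07, and ERO1B in RPMI-8226-R fell by 2.59 ± 0.13.

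Protein-coding genes within 500 kb of the constant genes moved in both directions, as did all genes tested (28.5% higher and 37.2% lower). Near the lambda constant genes 2 of 8 tested neighbours were higher in RPMI-8226-R and 3 lower. RAB36, a small GTPase, rose by 4.14 ± 0.29 and the kinase gene BCR by 1.29 ± 0.09 on the log2 scale, against the direction of the lambda genes, while RSPH14 fell by 2.46 ± 0.68 and PRAME went from 0.51 TPM to 0 TPM. Near JCHAIN 2 of 6 were higher, UTP3 at a distance of 6662 bases by 1.14 ± 0.08 and GRSF1 by 0.17 ± 0.07 (a call lost with the length offset), and 4 were lower, led by SLC4A4, which fell by 3.17 ± 0.49, and MOB1B, which fell by 1.16 ± 0.14. Near IGKC 1 of 2 was higher, RPIA by 0.62 ± 0.11. Near the heavy chain constant genes 3 of 10 were higher, led by BRF1 (0.91 ± 0.12) and PACS2 (0.61 ± 0.13), and 4 lower, led by CRIP2, which fell by 3.65 ± 0.13, and NUDT14, which fell by 1.16 ± 0.16.

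The genes whose pattern over the 6 libraries was most like that of JCHAIN were sought among 10000 protein-coding genes, by the distance between log2(TPM + 1) profiles centred on their own means. PVALB (distance 2.12), MZB1 (2.15) and ITGB7 (2.58) were nearest. What they share with JCHAIN is a level near 0 in the libraries labelled NCI-BL2171 and a high level in both myeloma lines. Between the myeloma lines MZB1 moved against JCHAIN, from 1410 and 1444 TPM in RPMI-8226 to 848 and 889 TPM in RPMI-8226-R. PVALB, a calcium-binding protein gene, stood at 0 TPM in the libraries labelled NCI-BL2171, at 614 and 650 TPM in RPMI-8226 and at 734 and 736 TPM in RPMI-8226-R. ITGB7, an integrin subunit, stood at 0.876 and 0.877 TPM, then at 876 and 906 TPM, then at 933 and 1118 TPM. The lambda sum had no gene as near, with MZB1 nearest at 6.27. These distances describe 3 lines with 2 libraries each.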

How the data were processed

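RNA-seq libraries of ribosomal RNA-depleted total RNA from 3 untreated lines, 2 per line, were quantified by the authors per gene. Per the file headers, each deposited table gives length, effective length (another unit, in bases), TPM and number of reads. The deposited estimated counts were rounded to whole numbers before testing, and TPM deposited by the authors were used as given. Per the submitters' processing notes the build is GRCh38 p13. Quantifier, annotation release and strandedness were not given in the sources used here, so reads of near-identical, overlapping or antisense genes may be split in ways not checked. Each table held 61544 genes, and 46 copies on the pseudoautosomal Y were added to their X genes. Symbols, positions and transcripts came from GENCODE 29 where it holds the gene.

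Counts were tested in edgeR 4.0.16 (R 4.3.3) with TMM, a filter by line (filterByExpr, count of at least 10, total of at least 15) and robust quasi-likelihood F tests, two-sided, with 3 residual degrees of freedom. The procedure was tested on simulated data. Lambda constant genes were also tested as 1 summed row. Folds against lines at 0 reads use a floor of 3 reads per library, and intervals are 95% exact binomial ones, both for counting error only. Libraries of a line differed by more than sampling noise, so none was a copy. Alternatives were DESeq2 1.42.0 size factors and Wald test, normalisation without immunoglobulin genes, an effective-length offset, limma 3.58.1 on log2(TPM + 1) and log2(TPM + 0.1), no filter, only the 4 libraries compared, a replicate block, IGLL5 added to the lambda sum, and leaving out each library. The members, gene lists and tests were chosen with earlier results of these data known. Named genes were the 10 members and the other constant genes whatever their values, preset regulators, the 3 largest rises and falls of each list with at least 5 TPM in the higher line, 2 neighbours each way and the 3 most alike genes. A few genes that these rules or lists cover are not reported here.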

Additional observations from a re-analysis of the deposited data

How the results depend on the processing

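Over all alternatives, 397 of 403 values of single members kept their direction and side of the threshold, 3 lost the call, 1 gained it and 2 changed sign. For the lambda sum in RPMI-8226-R against RPMI-8226, the alternative that lost the call was limma on log2(TPM + 0.1) (-0.84, adjusted p = 0.223); the cause was not tested. Counting reads instead of TPM moved ratios between genes: the lambda share of light chain constant reads was 99.5% in RPMI-8226 and 98.4% in RPMI-8226-R, the log2 ratio of JCHAIN to lambda was -4.60 and -2.63, and the 10 members held 2.66% and 1.47% of all reads, since short genes weigh less without division by length. IGHG4, not called in RPMI-8226-R against RPMI-8226, changed sign to -0.40 with the length offset, -0.074 and -0.079 with limma on log2(TPM + 1) and log2(TPM + 0.1), and ranged from -0.019 to 0.13 without each library in turn. Against the libraries labelled NCI-BL2171, IGHA1 in RPMI-8226-R ranged from -0.038 (without its second library) to 5.16 and IGHE from -1.01 to 0.40 (without the first library labelled NCI-BL2171), both at a few reads. With each library left out in turn, the lambda sum ranged from -1.26 to -1.19 between the myeloma lines, from 18.31 to 22.51 in RPMI-8226 and from 17.08 to 21.29 in RPMI-8226-R against the libraries labelled NCI-BL2171, and members called higher in the last comparison numbered 7 to 8. Libraries of the same number did not deviate together across genes (r 0.03, -0.00 and 0.01). Each r rests on 1 difference per line, so it cannot tell whether libraries of the same number were handled together. A replicate block gave 13045 calls in place of 13177 between the myeloma lines and moved 0 of 81 results in sign or across the threshold; with it the lambda sum was -1.24. Depth limits IGHM, IGHA1 and IGHE, which rest on few or 0 reads.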
